A study of Homo sapiens with 2 samples.

Results

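The expression of 10 genes of the Notch pathway was examined in 2 human liver cancer cell lines by poly(A)-selected RNA-seq. The genes were the receptor genes NOTCH1, NOTCH2 and NOTCH3, the ligand genes JAG1, JAG2, DLL1 and DLL4, and the target genes HES1, HEY1 and NRARP. They were found by symbol among 57820 listed genes. The symbol JAG1 is listed under 2 identifiers, so the 10 genes took 11 listings. SKHEP1, derived from a liver adenocarcinoma and labelled as endothelial cells, and HepG2, labelled as hepatocellular carcinoma, were both grown as unmodified (WT) cultures in the same serum-containing medium. The study set out to examine the long noncoding RNA PURPL and its transcript variants in both lines. Each line was represented by 1 library, so no difference has a replicate check and none was tested. A difference between the lines and one between these 2 cultures or libraries cannot be told apart.

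Notch signalling passes between touching cells. A ligand of the Jagged or Delta-like family on one cell binds a Notch receptor on the next, the receptor is cut first by an ADAM protease and then by gamma-secretase, and its freed intracellular part enters the nucleus. There it joins the DNA-binding protein RBPJ and a Mastermind coactivator and switches on genes such as HES1, HEY1 and NRARP. In the liver, JAG1 and NOTCH2 are known for bile duct formation, and mutations of either cause Alagille syndrome, whereas DLL4 and NOTCH1 are known for their part in the sprouting of blood vessels.

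Expected counts summed to 19940557 in SKHEP1 and to 22477757 in HepG2. Levels are given in expected counts, in counts-per-million (CPM) after TMM scaling, or in the deposited TPM (transcripts-per-million, which takes account of gene length). Comparisons between genes use TPM. Intervals are at 95%, exact, and cover counting error only. Ratios run SKHEP1 over HepG2, and a gene with at least 10 counts in either library was called higher in a line at 4-fold or more. A count under 3 was set to a floor of 3 counts per library for these calls, which is 0.148 CPM in SKHEP1 and 0.135 CPM in HepG2. The 16 hepatocyte markers all reached 10 counts in HepG2, with ALB at 0 counts in SKHEP1 against 646438 in HepG2, and HNF4A at 0 and 8689. In SKHEP1, 4 of the 16 did, among them SERPINA1 with 1817 counts against 140809 in HepG2. Of 20 endothelial markers matched, 7 reached 10 counts in SKHEP1 against 6 in HepG2. The defining markers CDH5, with 1 count in SKHEP1 and 5 in HepG2, and KDR, with 0 in both, were near or at 0, which goes against the endothelial label of SKHEP1, while PECAM1 was not analysed here. Others of the list were present in SKHEP1. Of the 9 compared, 4 passed 4-fold towards SKHEP1, against 16.5% of all genes compared, and 3 towards HepG2, against 13.0%. The 4 were ENG with 1926 counts in SKHEP1 against 18 in HepG2, ROBO4 with 343 against 4, FLI1 with 273 against 0 and EGFL7 with 178 against 5. The 3 were SOX18 with 12 counts in SKHEP1 against 72 in HepG2, ESAM with 16 against 144 and LYVE1 with 0 against 23. The summed TPM of the endothelial markers was 86.95 in SKHEP1, of which ENG gave 53.34, and 12.72 in HepG2. Of the 20 matched, 10 were at 0 counts in SKHEP1 and 11 in HepG2. Mesenchymal markers summed to 7083 TPM in SKHEP1, of which VIM gave 6798, and to 186.7 in HepG2. Of the 9 compared, 5 passed 4-fold towards SKHEP1, against 16.5% of all genes compared, and 4 were within it, against 70.6%. The blood markers summed to 148.8 TPM in SKHEP1 and 2088 in HepG2, of which LYZ gave 2020 in HepG2. The part of these other marker genes in the results below was not tested.

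SKHEP1 had more receptor mRNA, nearly all of it NOTCH2, and HepG2 had more ligand mRNA, nearly all of it JAG1. Of the 10 genes, 4 were higher in SKHEP1 (NOTCH1, NOTCH2, JAG2 and DLL1), 2 were higher in HepG2 (JAG1 and HEY1), 2 lay within 4-fold (HES1 and NRARP), and 2 were under 10 counts in both libraries (NOTCH3 and DLL4). Among all 15455 genes compared, 16.5% passed this limit towards SKHEP1 and 13.0% towards HepG2. Of the 8 Notch genes compared, 6 passed 4-fold in either direction, against 29.4% of all genes compared. JAG2, DLL1, NRARP and HEY1 reached 10 counts only in the line where they were higher, so no excess is drawn from this share. The log2 ratio had a median of 2.62 over the 8 Notch genes with enough counts and of 0.03 over all genes compared. The 8 ratios ran in both directions, so this median does not describe a shift that the genes share. In bulk RNA, fewer expressing cells in a culture and less RNA per cell cannot be told apart.

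**Figure D1:**
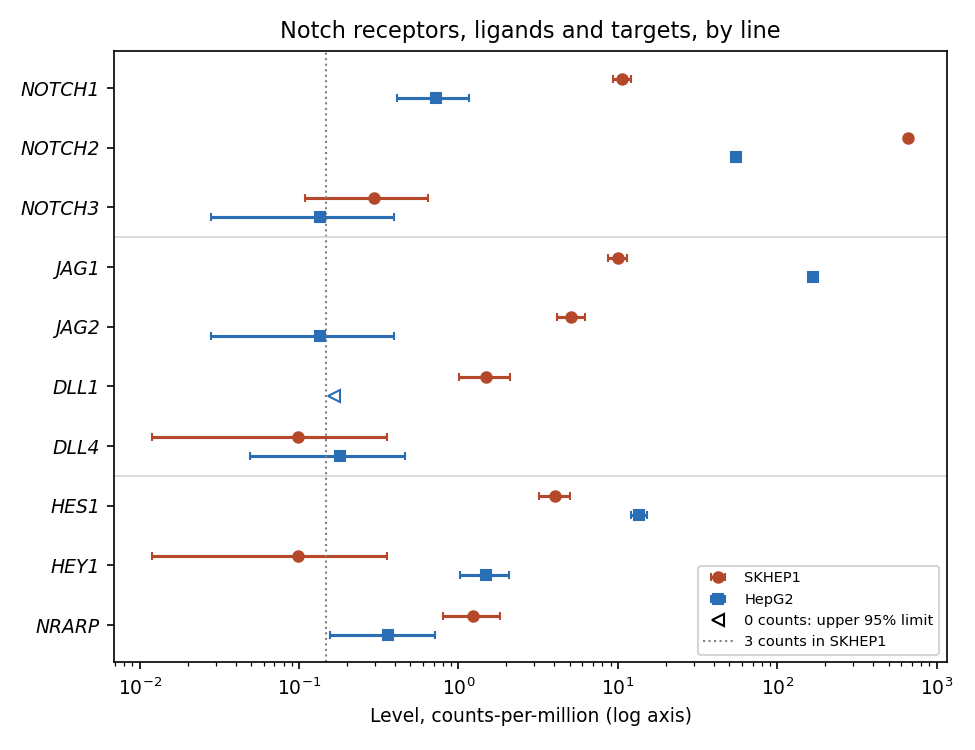
Level of each of the 10 Notch genes in SKHEP1 (circles) and HepG2 (squares), in counts-per-million on a log axis, with exact 95% Poisson intervals from 1 library each. The open triangle is the upper limit for DLL1, which had 0 counts in HepG2. NOTCH2 in SKHEP1 and JAG1 in HepG2 stand farthest to the right, at 658 and 168 CPM.

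NOTCH2, a receptor with broad expression, was the most abundant of the 10 mRNAs in SKHEP1 and 11.9-fold higher there than in HepG2. It had 13294 expected counts in SKHEP1 against 1225 in HepG2. In CPM this was 658 (interval 647 to 669) in SKHEP1 and 55.2 (52.2 to 58.4) in HepG2, or 11.9-fold (counting interval 11.2 to 12.6). By deposited TPM the gene stood at 95.47 in SKHEP1 and 7.59 in HepG2, which placed it at rank 1725 and 9170 of the listed genes. Of the genes compared, 84.1% lay closer together between the lines than NOTCH2 did.

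Part of the NOTCH2 signal is shared with NOTCH2NL, a human-specific near copy of the start of the gene, so how RSEM split reads between them is uncertain. NOTCH2NL had 1058 counts in SKHEP1 against 117 in HepG2, 9.93-fold (8.20 to 12.1) in the same direction. Summed, the gene and its near copy had 14352 counts in SKHEP1 against 1342 in HepG2, or 11.7-fold (11.1 to 12.4). The isoform-weighted length of NOTCH2 was also alike in both libraries, at 11131 bases in SKHEP1 and 11367 in HepG2.

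NOTCH1, the receptor best known from T cell leukaemia and from endothelium, was 14.8-fold higher in SKHEP1. It had 215 counts (10.6 CPM, 9.27 to 12.2) in SKHEP1 and 16 counts (0.721 CPM, 0.412 to 1.17) in HepG2, and the interval of the ratio was 8.88 to 26.3. Its level was low in both lines, with 1.84 TPM in SKHEP1 and 0.12 TPM in HepG2. NOTCH3, the receptor of vascular smooth muscle and pericytes, was close to undetected, with 6 counts in SKHEP1 against 3 in HepG2. Its 2 values cannot be ordered, since the ratio of 2.20 has an interval of 0.469 to 13.6, and deposited TPM gave 0.08 in SKHEP1 and 0.18 in HepG2. The weighted length that RSEM assigned to NOTCH3 was 5952 bases in SKHEP1 and 1331 in HepG2, resting on those few reads. NOTCH4, the remaining mammalian receptor and mostly endothelial, had 4 counts in SKHEP1 against 16 in HepG2, a 3.64-fold difference towards HepG2 (1.18 to 15.0) and within the 4-fold limit.

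Together the 4 receptor genes summed to 97.61 TPM in SKHEP1 and 8.66 TPM in HepG2. NOTCH2 made up 97.8% of that sum in SKHEP1 and 87.6% in HepG2. As a share of receptor counts, which does not depend on the gene lengths RSEM estimated, NOTCH2 took 98.3% (exact binomial interval 98.1 to 98.5) in SKHEP1 and 97.2% (96.2 to 98.1) in HepG2. So NOTCH2 was the leading receptor mRNA of both lines, and the lines differed in its amount. NOTCH4 took 0.225% of the receptor TPM in SKHEP1 and 8.89% in HepG2, where it rested on 16 counts. NOTCH1 also had 16 counts in HepG2, but its weighted length was 9371 bases, against 1632 for NOTCH4. As a share of receptor counts, NOTCH4 took 1.27% in HepG2 (0.728 to 2.05).

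**Figure D2:**
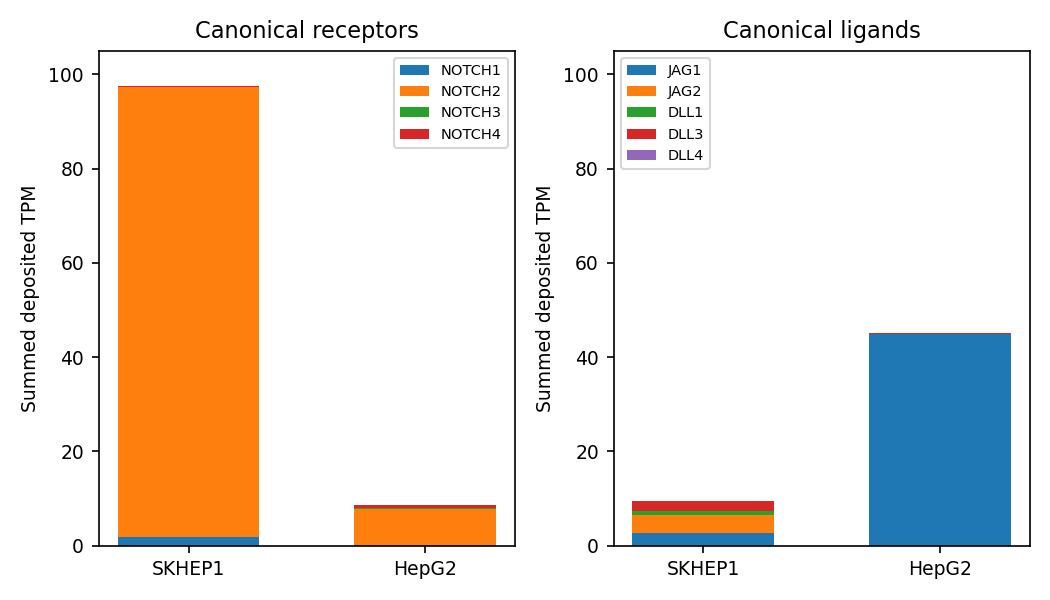
Deposited TPM of the 4 canonical receptors (left) and 5 canonical ligands (right), stacked by gene, for SKHEP1 and HepG2 with 1 library each. The receptor bar is taller in SKHEP1 (97.61 against 8.66 TPM) and the ligand bar in HepG2 (9.56 TPM in SKHEP1 against 45.17).

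Among the ligands, JAG1 went the other way from NOTCH1 and NOTCH2 and was 16.8-fold higher in HepG2. It had 202 counts in SKHEP1 against 3728 in HepG2. Its level was 10.00 CPM (8.67 to 11.5) in SKHEP1 and 168 CPM (163 to 174) in HepG2, with a counting interval of 14.6 to 19.5 for the fold. In TPM, JAG1 stood at 2.74 in SKHEP1, rank 11435, and at 44.91 in HepG2, rank 3566, where it was the most abundant of the 10 genes. The log2 ratio was -4.07, and 86.6% of all genes compared lay closer together. The second JAG1 listing, a single transcript of 568 bases, held 1 count in SKHEP1 and 4 in HepG2. Adding it left the fold at 16.7 (14.5 to 19.4).

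The other 3 ligand genes of the set were low in both lines, and 2 of them were higher in SKHEP1. JAG2, the second Jagged ligand, had 103 counts in SKHEP1 against 3 in HepG2, or 37.7-fold (12.5 to 186). With counts under 3 set to the floor, that was the widest gap of the 10 genes by point value, and it exceeded that of 90.9% of all genes compared. Resting on 3 counts in HepG2, the JAG2 fold was 62.3 by deposited TPM and 22.6 with a prior count of 2. DLL1, a Delta-like ligand of somite development, had 30 counts in SKHEP1 against 0 in HepG2. DLL1 was at least 8.39-fold higher in SKHEP1 by its exact lower 95% limit, 11.0-fold with HepG2 set to the floor of 3 counts and 16.7-fold with a prior count of 2. DLL4, the ligand of endothelial tip cells, had 2 counts in SKHEP1 against 4 in HepG2, a level at which no difference was detectable (1.82-fold towards HepG2, interval 0.261 to 20.1). DLL3, the remaining canonical family member, which does not activate receptors on neighbouring cells, had 55 counts in SKHEP1 against 3 in HepG2, or 20.1-fold (6.54 to 101) towards SKHEP1, and 12.3-fold with a prior count of 2.

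The ligand mRNA of SKHEP1 was spread over 4 genes, whereas that of HepG2 was nearly all JAG1. In SKHEP1, JAG2 held 39.1% of 9.56 TPM of summed ligand, JAG1 28.7%, DLL3 23.4% and DLL1 8.26%. In HepG2, JAG1 held 99.4% of 45.17 TPM. By counts the JAG1 share was 51.5% (46.5 to 56.6) in SKHEP1 and 99.7% (99.5 to 99.9) in HepG2. JAG2 led in SKHEP1 by TPM but not by counts, because its weighted length was estimated at 2359 bases there, against 5987 for JAG1. The ratio of summed receptor TPM to summed ligand TPM was 10.2 in SKHEP1 and 0.192 in HepG2.

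**Figure D3:**
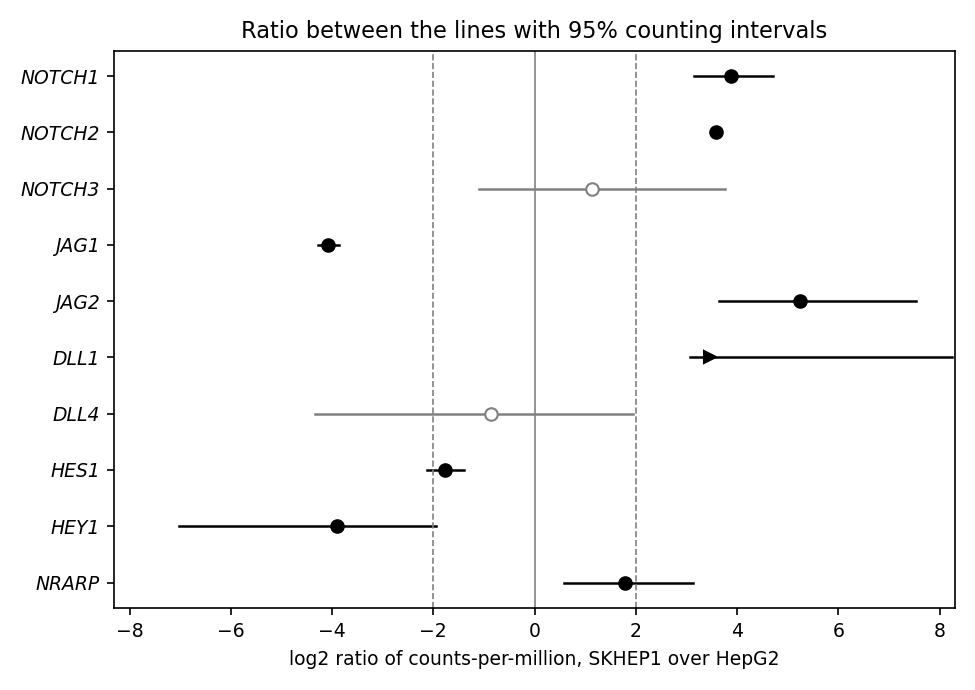
Log2 ratio of counts-per-million, SKHEP1 over HepG2, for each of the 10 Notch genes, with 95% exact conditional counting intervals. Dashed lines mark 4-fold in each direction, and open grey circles are genes under 10 counts in both libraries. The triangle for DLL1 is its value with HepG2 set to the floor of 3 counts. The DLL1 line starts at the exact lower limit, has no upper limit and ends at the right edge. NOTCH1, NOTCH2, JAG2 and DLL1 lie to the right of the upper dashed line and JAG1 and HEY1 to the left of the lower, while the NOTCH3 and DLL4 intervals span 0.

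Of the 3 target genes, HEY1 passed 4-fold, towards HepG2, and HES1 and NRARP did not. HES1, a transcriptional repressor and the classic Notch target, had 81 counts (4.01 CPM, 3.18 to 4.98) in SKHEP1 and 301 counts (13.6 CPM, 12.1 to 15.2) in HepG2. It was 3.38-fold higher in HepG2 (2.64 to 4.38), just inside the limit of 4-fold. HEY1, a related repressor prominent in blood vessels and heart, had 2 counts in SKHEP1 against 33 in HepG2. Its raw ratio was 15.0 towards HepG2 with an interval of 3.84 to 129, so the lower bound fell short of 4-fold. NRARP, a small ankyrin-repeat protein that is induced by Notch and limits it, had 25 counts in SKHEP1 against 8 in HepG2, or 3.43-fold (1.50 to 8.80) in the opposite direction. Of all genes compared, 67.1% lay closer together between the lines than HES1 did and 67.3% closer than NRARP did.

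Other members of the HES and HEY families differed in both directions. HES6, which lacks the usual repressor activity and promotes neuronal differentiation, had 14 counts in SKHEP1 against 580 in HepG2, a 37.7-fold difference towards HepG2 (22.3 to 69.5). HES4 had 12 counts in SKHEP1 against 51 in HepG2, or 3.87-fold (2.04 to 7.98) and within the limit. HEYL went the other way, with 102 counts in SKHEP1 against 1 in HepG2, or 112-fold (19.7 to 4466). With HepG2 set to the floor the HEYL fold was 37.3, and by deposited TPM with that floor it was 9.18. HES2, HES3, HES5, HES7 and HEY2 were all under 10 counts in both libraries, and HES3 and HES5 were at 0 in both. Of the 10 HES and HEY factors, 4 reached 10 counts in SKHEP1 against 4 in HepG2. Among the 8 factors outside the member set 3 were compared. HEYL passed the limit towards SKHEP1, against 16.5% of all genes compared, HES6 towards HepG2, against 13.0%, and HES4 in neither direction. The log2 ratios of these 3 factors had a median of -1.95.

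Promoter windows of 5 of these targets are shown because RBPJ recognises a short motif in many Notch targets, and because they differed in level, with HEYL higher in SKHEP1, HES1, HES4 and NRARP within 4-fold, and HES5 at 0 counts in both lines. They were chosen after their values and matches were seen. The windows run from 250 bases before to 50 bases after the RefSeq start (RefSeq sequences, GRCh38.p14, a later build than the hg19 of the expression files), 5′ to 3′ on the gene's strand. Capitals mark the RBPJ core TGGGAA or its reverse complement TTCCCA. HES1 lies at chr3:194135898-194136197 (plus strand), HES4 at chr1:1000048-1000347 (minus), HES5 at chr1:2530214-2530513 (minus), HEYL at chr1:39639594-39639893 (minus) and NRARP at chr9:137302222-137302521 (minus).
HES1: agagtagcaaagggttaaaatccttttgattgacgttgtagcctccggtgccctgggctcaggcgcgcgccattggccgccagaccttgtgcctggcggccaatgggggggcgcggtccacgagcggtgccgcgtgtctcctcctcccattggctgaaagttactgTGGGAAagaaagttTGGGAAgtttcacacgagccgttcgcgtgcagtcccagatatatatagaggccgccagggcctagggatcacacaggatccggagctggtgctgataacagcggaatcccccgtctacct
HES4: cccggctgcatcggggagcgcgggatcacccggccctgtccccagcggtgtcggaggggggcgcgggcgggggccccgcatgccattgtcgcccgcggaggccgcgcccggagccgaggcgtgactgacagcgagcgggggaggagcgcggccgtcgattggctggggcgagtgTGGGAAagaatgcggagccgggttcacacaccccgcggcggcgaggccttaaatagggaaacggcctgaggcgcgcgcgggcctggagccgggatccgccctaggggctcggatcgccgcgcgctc
HES5: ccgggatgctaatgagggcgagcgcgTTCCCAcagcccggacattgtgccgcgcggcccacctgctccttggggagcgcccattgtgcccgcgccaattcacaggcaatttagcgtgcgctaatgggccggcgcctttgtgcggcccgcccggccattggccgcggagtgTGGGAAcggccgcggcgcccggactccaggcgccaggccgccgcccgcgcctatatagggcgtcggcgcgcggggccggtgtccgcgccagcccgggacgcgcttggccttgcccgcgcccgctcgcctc
HEYL: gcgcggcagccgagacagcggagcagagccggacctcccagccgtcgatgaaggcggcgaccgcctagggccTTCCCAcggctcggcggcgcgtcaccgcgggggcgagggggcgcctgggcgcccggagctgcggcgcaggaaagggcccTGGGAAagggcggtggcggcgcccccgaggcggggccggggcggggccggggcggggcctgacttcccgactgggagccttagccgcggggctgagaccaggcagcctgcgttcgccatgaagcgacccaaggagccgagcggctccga
NRARP: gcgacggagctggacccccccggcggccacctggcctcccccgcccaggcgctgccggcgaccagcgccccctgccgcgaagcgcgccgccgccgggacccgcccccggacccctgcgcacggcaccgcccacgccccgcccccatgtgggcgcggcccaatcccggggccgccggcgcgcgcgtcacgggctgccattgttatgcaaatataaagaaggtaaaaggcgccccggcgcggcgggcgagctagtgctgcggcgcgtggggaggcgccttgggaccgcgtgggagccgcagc

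HES1 held 2 RBPJ cores on the plus strand of the window, with first bases 84 and 70 bases before the start site. HES4 had 1 at 76 bases and HES5 1 at 80 bases before the start, also forward. HES5 had a second, reverse core at 224 bases. HEYL had a reverse core at 178 and a forward core at 99 bases before the start, and NRARP had none. Over all 35116 RefSeq promoter windows of this length, 24.0% held at least 1 core on either strand and 3.80% held 2 or more. The longer form GTGGGAA (reverse complement TTCCCAC), which contains the core, was present in 6.25% of windows and occurred in HES1, HES4, HES5 and HEYL. The N box CACNAG (reverse complement CTNGTG), a motif bound by HES repressors, was in 38.0% of windows and occurred 4 times in HES1. Of the 8 members with a window read (DLL1 and HEY1 were not used here), HES1 alone held a core. Of the 8 other HES and HEY factors, 5 held a core, and HES6, with the widest gap towards HepG2 of these factors, held none. Of the 4 printed windows with a core, those of HES1 and HES4 belong to genes with fewer counts in SKHEP1 than in HepG2, that of HEYL to a gene with more counts in SKHEP1, and that of HES5 to a gene at 0 counts in both lines. A match of these letters is a description of the window and not a sign of RBPJ binding there.

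**Figure D4:**
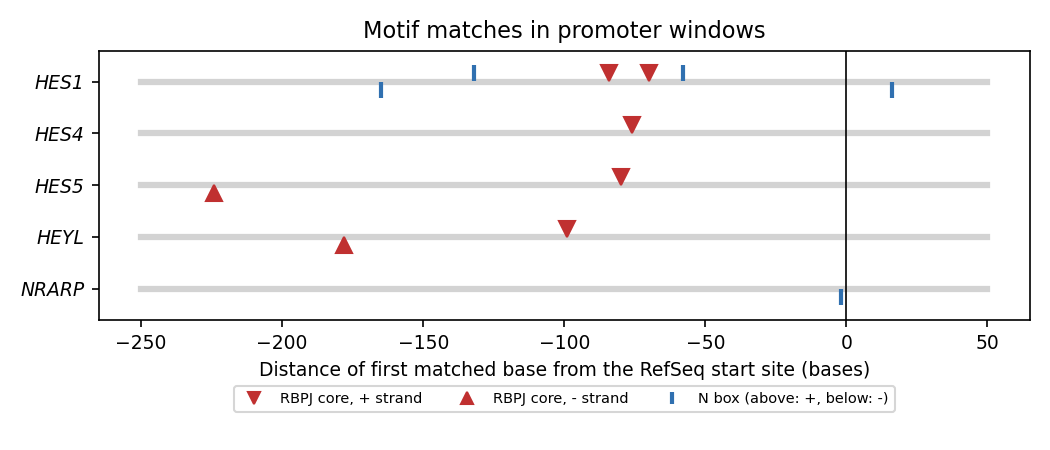
Matches of the RBPJ core TGGGAA (red triangles, pointing down on the plus strand and up on the minus strand) and of the N box CACNAG (blue bars) in the promoter windows of HES1, HES4, HES5, HEYL and NRARP. The x axis is the distance in bases of the first matched base from the RefSeq start site. HES1, HES4 and HES5 each have a forward core between 70 and 84 bases before the start, and NRARP has none.

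Ranked by deposited TPM within each line, the 10 genes stood in a different order. In SKHEP1, NOTCH2 came first at 95.47 TPM, followed by HES1 at 4.86, JAG2 at 3.74, JAG1 at 2.74 and NOTCH1 at 1.84. NRARP at 0.81 and DLL1 at 0.79 TPM came next, and NOTCH3, HEY1 and DLL4 were at or below 0.08 TPM. Neighbours with overlapping counting intervals in SKHEP1 were HES1 and JAG2, JAG2 and JAG1, NRARP and DLL1, and the last 3 genes. In HepG2, JAG1 came first at 44.91 TPM, then HES1 at 15.18, NOTCH2 at 7.59 and HEY1 at 1.47, and these 4 were separated by more than their counting intervals. The other 6 genes were at or below 0.23 TPM in HepG2, and each overlapped its neighbour. HES1 therefore held the second place by point value in both lines, though in SKHEP1 its interval overlapped that of JAG2.

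Beyond these 10 genes, 97 genes of the wider pathway were looked up in 7 lists by role, of which 86 reached 10 counts in either library. Towards SKHEP1, 26 (30.2%) passed the limit, against 16.5% of all genes compared. Towards HepG2, 4 (4.65%) did, against 13.0%. The remaining 56 (65.1%) lay within 4-fold, against 70.6%. Their median log2 ratio was 0.42. Genes that reached 10 counts in 1 line only were among the 86, and the lists were chosen with earlier results of these data known. These shares are therefore not read as an excess. Most genes for cleavage, glycosylation, trafficking and the nuclear complex were within 4-fold, as were 70.6% of all genes compared. The widest gaps stood among atypical ligands, corepressors and genes reported as targets.

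Of the 7 other receptor, ligand and ligand-binding genes compared, NOTCH4 and DLL3 included, 5 passed the limit towards SKHEP1, against 16.5% of all genes compared, 1 towards HepG2, against 13.0%, and 1 in neither direction. Their log2 ratios had a median of 4.33. DNER, a neuronal transmembrane protein with EGF repeats reported to bind Notch, had 4747 counts in SKHEP1 against 0 in HepG2, and was at least 1412-fold higher in SKHEP1 by its exact lower 95% limit. With HepG2 at the floor the DNER fold was 1737 by counts and 1129 by deposited TPM. DLK1, an imprinted Delta-like protein of fetal liver that is held to inhibit Notch, had 0 counts in SKHEP1 against 3024 in HepG2, and was at least 746-fold higher in HepG2 by the same limit. With SKHEP1 at the floor the DLK1 fold was 918 by counts, 477 by deposited TPM and 1446 with a prior count of 2. By TPM they stood at 126.3 for DNER in SKHEP1 and 155.3 for DLK1 in HepG2, each above the summed canonical ligands of its line. MFAP2, a microfibril protein, had 739 counts in SKHEP1 against 5 in HepG2 (162-fold, 69.2 to 501), and the contactin CNTN1 had 104 against 2 (57.1-fold, 15.4 to 478). With the floor the CNTN1 fold was 38.1 by counts and 13.6 by deposited TPM.

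RBPJ itself, the DNA-binding partner of the receptor, had 1312 counts in SKHEP1 against 1570 in HepG2, a log2 ratio of -0.12, against 0.10 by deposited TPM. Of 23 nuclear complex genes compared, 16 (69.6%) lay within 4-fold, against 70.6% of all genes compared. The other 7 passed it towards SKHEP1, against 16.5%. The median log2 ratio of the 23 was 0.33. The corepressor gene CTBP2 had 1696 counts in SKHEP1 against 2 in HepG2, or 931-fold (257 to 7694), while its paralogue CTBP1 had 1239 and 1860 counts. With HepG2 at the floor the CTBP2 fold was 621 by counts and 197 by deposited TPM. The Groucho corepressor TLE4 had 789 counts in SKHEP1 against 52 in HepG2 (16.7-fold, 12.6 to 22.5). The acetyltransferase KAT2B was at 341 and 54 counts (6.93-fold), and the RBPJ-binding corepressor L3MBTL3 at 187 and 44 (4.67-fold).

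Of 9 genes for the enzymes that cut the receptor, 8 (88.9%) lay within 4-fold between the lines, against 70.6% of all genes compared. Their median log2 ratio was 0.13. APH1B, a gamma-secretase subunit, was the exception, with 519 counts in SKHEP1 against 5 in HepG2 (114-fold, 48.5 to 352), whereas its paralogue APH1A had 2661 and 3364 counts. By deposited TPM the APH1B fold was 23.9, with a weighted length of 2859 bases in SKHEP1 and 739 in HepG2. Among the 9 glycosylation enzyme genes, 7 (77.8%) lay within 4-fold, against 70.6% of all genes compared. The other 2 passed it towards SKHEP1, against 16.5%, and the median log2 ratio of the 9 was -0.55. LFNG, the fringe enzyme that extends O-fucose on Notch receptors and biases them towards Delta-like ligands, had 277 counts in SKHEP1 against 12 in HepG2 (25.3-fold, 14.3 to 49.6). Its paralogue MFNG, named after its values were seen, had 24 and 6 counts (4.39-fold, 1.75 to 13.1), and it was past 4-fold by counts but not by deposited TPM, at 1.22 in SKHEP1 and 0.39 in HepG2.

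Of 20 trafficking and turnover genes compared, 15 lay within 4-fold, a share near the 70.6% of all genes compared. Another 4 passed it towards SKHEP1, against 16.5%, and 1 towards HepG2, against 13.0%. The median log2 ratio of the 20 was 0.63. NEURL1B, a ubiquitin ligase that acts on ligands, had 335 counts in SKHEP1 against 3 in HepG2 (123-fold, 41.6 to 597), and was 72.6-fold higher with a prior count of 2. NUMBL, a relative of the Notch inhibitor NUMB, had 296 and 9 counts (36.1-fold, 18.8 to 79.7), and the ubiquitin ligase NEDD4 had 7278 and 729 (11.0-fold, 10.2 to 11.8). DTX4, a Deltex ubiquitin ligase, went the other way with 39 counts in SKHEP1 against 659 in HepG2 (15.4-fold, 11.1 to 21.8).

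Of 18 genes reported as Notch targets in other tissues, 8 passed the limit towards SKHEP1, against 16.5% of all genes compared. Towards HepG2 1 did, against 13.0%, and 9 passed it in neither direction, where 70.6% of all genes compared stood. The median log2 ratio was 1.33. SNAI2, a repressor of epithelial genes, had 1275 counts in SKHEP1 against 3 in HepG2 (467-fold, 159 to 2266, or 275-fold with a prior count of 2). The transcription factor GATA3 had 1043 counts in SKHEP1 against 1 in HepG2 (1145-fold, 205 to 45273). With HepG2 at the floor the GATA3 fold was 382. IL7R, the interleukin 7 receptor, had 453 counts in SKHEP1 against 0 in HepG2, and was at least 134-fold higher in SKHEP1 by its exact lower 95% limit. With HepG2 at the floor the IL7R fold was 166 by counts and 42.4 by deposited TPM. ID1, an inhibitor of bHLH factors also known as a BMP target, had 54 counts in SKHEP1 against 2264 in HepG2 (38.2-fold, 29.2 to 51.0). These genes answer to many other pathways, and 3 of them also stand in another of the 7 lists.

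**Figure D5:**
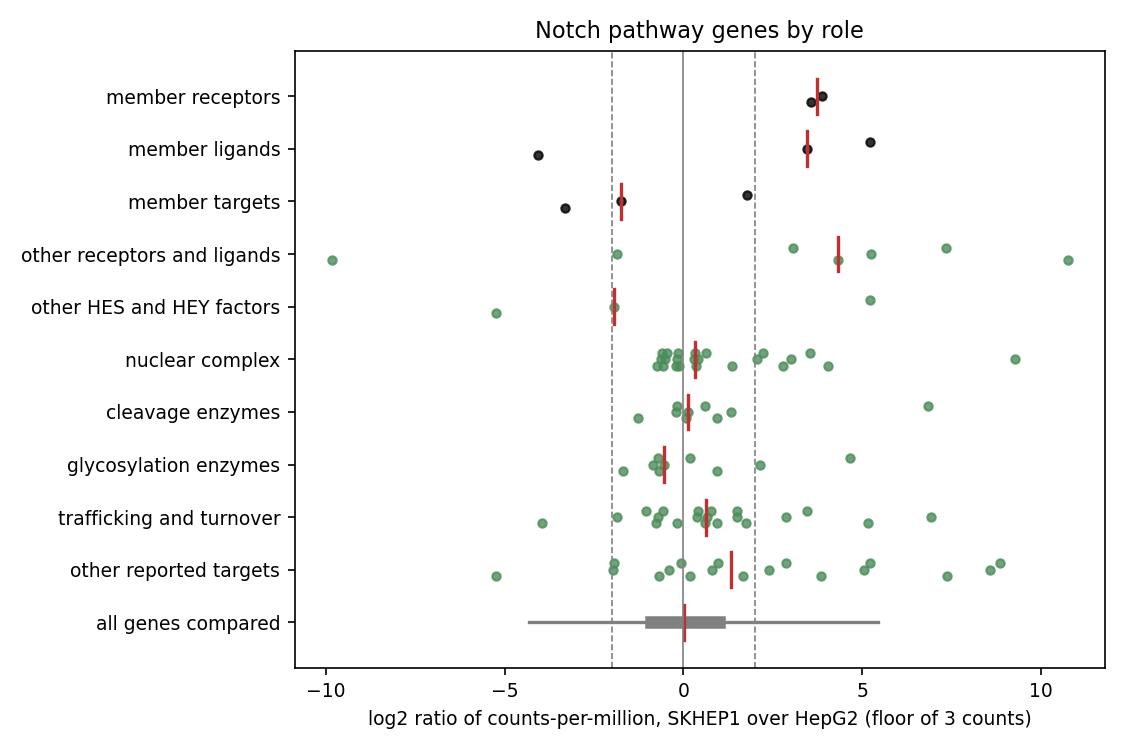
Log2 ratio of counts-per-million, SKHEP1 over HepG2, for each gene with at least 10 counts in either library, by role. Black points are the 8 compared of the 10 Notch genes and green points the wider pathway, red ticks are medians, and dashed lines mark 4-fold. The bottom row gives the quartiles (thick) and the 5th to 95th percentiles (thin) of all 15455 genes compared. Between the dashed lines lie 88.9% of cleavage, 77.8% of glycosylation and 69.6% of nuclear genes, against 70.6% of all genes compared. The receptors and ligands compared lie outside, except NOTCH4. Among those outside, JAG2, DLL1, DLL3, DLK1, DNER, CNTN1 and MFAP2 reached 10 counts in 1 line only, so no contrast between roles is drawn.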

How the data were processed

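RNA-seq tables of 2 cell lines, SKHEP1 and HepG2, with 1 library per line were used, grouped by the cell line label. Per the labels' protocols, libraries were stranded mRNA preparations. The build was hg19 and reads passed through cutadapt, STAR and RSEM, with DESeq2 also listed, per the submitters' processing notes. Which versions, annotation and strand setting RSEM used was not given in the sources used here. Reads of overlapping and antisense genes may therefore be mixed. The deposited tables hold expected counts, TPM, FPKM and isoform-weighted lengths by RSEM, per the file headers.

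Expected counts were rounded and scaled with TMM factors (1.01 for SKHEP1, 0.987 for HepG2) in edgeR 4.0.16 under R 4.3.3, with Python 3.11.15 and scipy 1.17.1 for exact intervals. Because PCR reads are not independent molecules, intervals cover counting error only. Genes with 10 or more rounded counts in either library were compared, and 4-fold with a floor of 3 counts was the call of size; no test was made. The calculation was tested on simulated counts. Alternatives were other scalings, deposited TPM and FPKM, a prior count of 2, unrounded or thinned counts, a minimum of 50 counts or of 1 count, 2-fold or 8-fold as the limit, and the interval's lower bound.

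The 10 members and all lists (7 by pathway role, and endothelial, hepatocyte, mesenchymal, blood and biliary markers) were chosen with earlier results of these data known. Named genes were the members, NOTCH4, DLL3, RBPJ, up to 4 genes per pathway list with the largest log2 ratio among those past 4-fold with at least 100 counts, and the markers CDH5, PECAM1, KDR, ALB and HNF4A. Genes named outside this rule, among them NOTCH2NL, CTBP1, APH1A, LYZ and the other HES and HEY factors, were chosen after their values were seen. Chromosomes and names were matched by stable identifier. PECAM1 and CD24 were not analysed here. A marker of the biliary list is not reported here and was left out of that list's counts and median.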

Additional observations from a re-analysis of the deposited data

How the results depend on the processing

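No paired analysis was possible because each line has 1 library, and leaving out a library leaves no comparison. Of the 10 Notch genes, 9 kept the direction of their ratio under all scalings, deposited TPM or FPKM, a prior count of 2, and unrounded or thinned counts. DLL4 was among the 9, but with 2 counts in SKHEP1 and 4 in HepG2 its interval spans both directions, so its direction is not resolved. NOTCH3, with 6 and 3 counts, ranged from -1.26 to 1.17 on the log2 scale. NOTCH2 ranged from 3.53 to 3.65, JAG1 from -4.11 to -4.03, JAG2 from 4.50 to 5.96 and DLL1 from 3.28 to 4.06. Of 233 single-gene ratios recomputed for 33 genes, 20 left the counting interval of the value by counts, all with deposited TPM or FPKM. Of the 27 named genes past 4-fold, 8 moved by over 1.5 times with deposited TPM and 6 with a prior count of 2, as given beside each above, and the cause was not tested. The number of Notch genes higher in HepG2 was 1 in place of 2 with a minimum of 50 counts or by the interval's lower bound, since HEY1 had 33 counts and a lower bound under 4-fold. With a minimum of 50, 5 Notch genes were compared and 3 were higher in SKHEP1, as DLL1 had 30 counts. The median log2 ratio of the Notch genes was 3.57 with that minimum and 1.46 with a minimum of 1, against 2.62 above. The count of glycosylation enzymes past the limit was 1 in place of 2 with deposited TPM, deposited FPKM, a prior count, a minimum of 50, a limit of 8-fold or the lower bound, and that of nuclear complex genes was 4 in place of 7 with 8-fold or the lower bound. With a limit of 2-fold, 3 cleavage enzymes, 10 trafficking genes and, over all genes, 3869 higher in SKHEP1 and 3619 higher in HepG2 were past it; with 8-fold, 1258 genes were higher in HepG2. Summing NOTCH2 with NOTCH2NL and both JAG1 listings was chosen after seeing the data. Counts of 6 or fewer limit NOTCH3 and DLL4 in both lines, JAG2 and DLL1 in HepG2 and HEY1 in SKHEP1.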

Other observations

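Markers of bile duct and progenitor cells, whose formation in the liver depends on Notch, differed between the lines in both directions, and 5 of the 9 matched reached 10 counts in both. SOX9, a duct transcription factor, had 3514 counts in SKHEP1 against 3392 in HepG2, or 1.14-fold (1.08 to 1.19). KRT19, a duct keratin, was at 4635 and 2631 counts (1.93-fold, 1.84 to 2.03), and SPP1, or osteopontin, at 4136 and 9748, which was 2.15-fold higher in HepG2. KRT7 had 1276 counts in SKHEP1 against 0 in HepG2. EPCAM had 32 and 3163 counts, PROM1 0 and 388, and ONECUT1, a transcription factor of duct formation, 12 and 113. Of the 7 markers compared, 1 passed 4-fold towards SKHEP1, against 16.5% of all genes compared, 3 towards HepG2, against 13.0%, and 3 in neither direction. Their median log2 ratio was -1.10. AQP1 and CFTR, markers of mature duct cells, had 0 counts in both. CD24 was not analysed here.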
